A study of Mus musculus with 4 samples.

Results

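Egf, Calb1 and Klk1b3 are the 3 genes of the distal tubule among the 84 genes of an RT-PCR array for mouse nephrotoxicity. They were chosen by their symbols in the Ct table, with earlier results of these data known, and all 3 were found there. The array was run on total RNA of MCT cells, a murine kidney epithelial line that the labels assign to the convoluted tubule without naming proximal or distal. There was 1 sample for each of 4 conditions. These were untreated cells, cells with 10 μg/ml of the calcineurin inhibitor cyclosporine A (CsA), cells with 1 μM of 11R-VIVIT (labelled 11R), a cell-permeable peptide that inhibits NFAT, and cells with 10 μM of SB203580, a p38 MAPK inhibitor. The sample called untreated here carries the treatment label control, and no vehicle is named. All cells were grown in DMEM with serum, and the study's methods give 24 h for such treatments. The series compared the calcineurin inhibitor with the inhibitors of NFAT and of p38 MAPK. Because there was 1 sample per condition, no value here carries a replicate error, no test between conditions was possible and all differences describe these samples. In bulk RNA, fewer cells that express a gene and less of its RNA per cell cannot be told apart.

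Egf encodes the precursor of epidermal growth factor, a membrane protein from which the growth factor is cut. In the kidney it is made by the thick ascending limb and the distal convoluted tubule. The released ligand binds the EGF receptor of tubular cells, and it is known to favour magnesium uptake and repair of the epithelium. Calb1 encodes calbindin, a cytosolic protein that binds calcium and carries it through the cells of the distal convoluted and connecting tubules. Klk1b3 belongs to the tissue kallikreins, secreted serine proteases. The kallikrein best known from the kidney, where connecting tubule cells release it, is the product of a neighbour of Klk1b3 in this family, Klk1. In treated animals, lower renal levels of Egf and of calbindin are known to accompany the magnesium and calcium wasting of calcineurin inhibitors.

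The mouse annotation GRCm38.p6 lists all 3 symbols, Egf with gene ID 13645 on chromosome 3, Calb1 with 12307 on chromosome 4 and Klk1b3 with 18050 on chromosome 7. Klk1 is a separate gene there, and its level was not analysed here. The annotation holds 13 other protein-coding genes of the Klk1 and Klk1b family and 10 symbols of Klk1b pseudogenes. The primers are not given in the sources used here, so which copies the Klk1b3 assay amplified is uncertain. To describe how alike the copies are around their starts, the RefSeq windows from 250 bases before to 50 bases after a start were aligned locally. The best-scoring window of each copy was kept. Bases before a start are not part of the transcript that begins there, so the alignment does not show which copies the assay amplified. Klk1b3 was identical to the other 13 windows at 77.5% to 87.2% of the aligned positions, with a median of 80.4%. Klk1b4 was the closest by this share, at 87.2% of 266 positions. Klk1 stood at 82.7% of 225 positions, the shortest alignment of the 13, so the shares cover unlike lengths. The longest stretch of Klk1b3 and Klk1b4 that aligned without a gap before both starts is printed below, on the plus strand of GRCm38.p6, at chr7:44197983-44198150 for Klk1b3 and chr7:44207183-44207350 for Klk1b4. Capitals mark the 18 of 168 positions at which the pair differ.
Klk1b3: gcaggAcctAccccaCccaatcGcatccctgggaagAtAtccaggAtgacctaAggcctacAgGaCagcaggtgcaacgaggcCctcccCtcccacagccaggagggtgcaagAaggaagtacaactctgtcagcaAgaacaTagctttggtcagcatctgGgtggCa
Klk1b4: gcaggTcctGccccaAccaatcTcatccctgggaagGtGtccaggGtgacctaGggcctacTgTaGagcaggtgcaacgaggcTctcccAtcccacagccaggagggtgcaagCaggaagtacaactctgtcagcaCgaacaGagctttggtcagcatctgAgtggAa

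Egf amplified earliest of the 3 genes and was measured in all 4 samples. The 250 bases before its outermost RefSeq start are printed here because NFAT, the target of 11R-VIVIT, lies downstream of calcineurin, and p38 MAPK acts on factors of the AP-1 family. They lie at chr3:129755323-129755572 on the minus strand of GRCm38.p6, and are written in the direction of the gene. Capitals mark the only match to GGAAA, the core that NFAT proteins bind, read on either strand.
Egf: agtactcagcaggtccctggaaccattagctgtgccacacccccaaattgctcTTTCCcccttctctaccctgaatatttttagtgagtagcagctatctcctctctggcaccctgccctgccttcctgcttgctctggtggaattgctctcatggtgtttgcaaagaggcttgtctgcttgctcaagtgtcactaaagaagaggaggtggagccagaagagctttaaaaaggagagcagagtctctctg
The match spans positions -197 to -193 from the start, on the opposite strand. Such a core was present in 55.6% of 32851 promoters of this length, so its presence is common. No match to TGANTCA, the letters of the AP-1 site, was found in this window, and 6.75% of all promoters hold one. The same stretch before Klk1b3 had 0 matches to either. A match is a description of letters and not a binding site. The promoter of Calb1 was not analysed here.

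The Ct counts the PCR cycles run until a product is seen above background, so a lower Ct is a higher level and 1 cycle stands for a 2-fold difference if each cycle doubles the product. Actb (beta-actin), the reference, had a Ct of 18.12 in untreated cells, 17.84 with CsA, 18.13 with 11R-VIVIT and 17.81 with SB203580. A Ct of 35 or later was taken as not detected, which held for 5 to 12 of the 84 genes per sample. Among the array genes, 69 were detected in all 4 samples, and Egf and Klk1b3 were among these.

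Egf had a Ct of 28.95 in untreated cells, 29.07 with 11R-VIVIT, 29.82 with CsA and 30.09 with SB203580. It was thus the earliest of the 3 genes in every sample, in the middle of the array, where 37 of the 84 genes amplified earlier in untreated cells and 44 with SB203580. Klk1b3 had a Ct of 33.75 in untreated cells, 34.01 with CsA, 34.43 with 11R-VIVIT and 32.74 with SB203580. All 4 values were late but before the limit, and SB203580 gave the earliest. Calb1 had a Ct of 36.08 in untreated cells, 37.31 with CsA, 35.61 with 11R-VIVIT and 34.36 with SB203580. Only the SB203580 sample, 34.36, lay inside the limit of 35 cycles, and the 11R-VIVIT sample at 35.61 was the closest outside it. With CsA, Calb1 was the latest of all 84 genes.

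**Figure D1:**
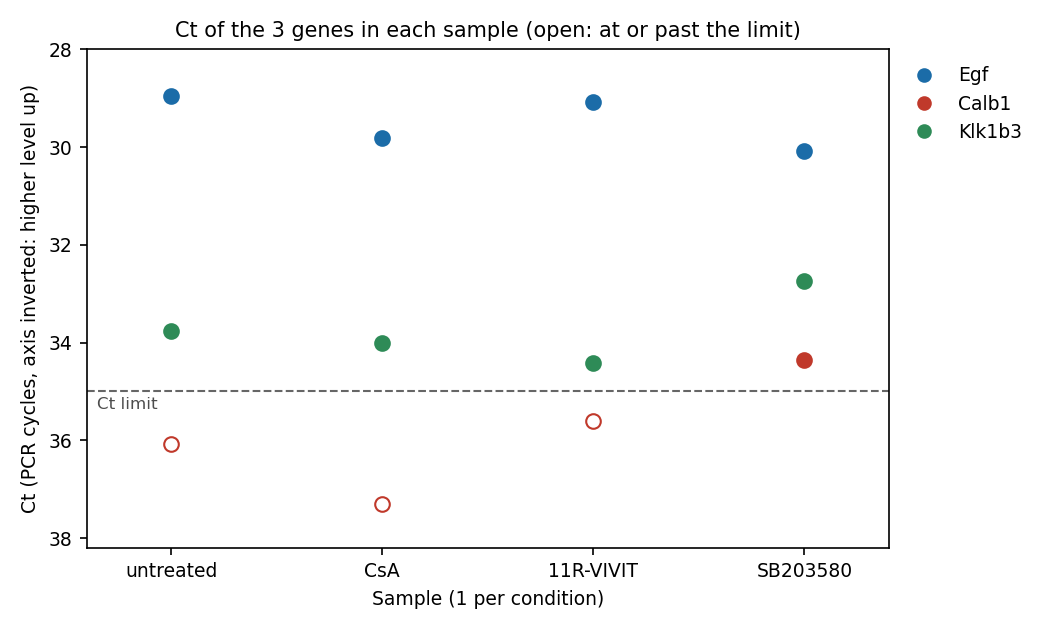
Ct in PCR cycles (vertical axis, inverted so that a higher level is up) of Egf, Calb1 and Klk1b3 in the 4 samples (horizontal axis, 1 sample per condition). Filled points were detected and open points are at or past the dashed limit of 35 cycles. Egf lies between 28.95 and 30.09, Klk1b3 between 32.74 and 34.43, and Calb1 is detected with SB203580 alone, at 34.36.

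The label of distal tubule genes was read against the other segment markers of the array. Of 14 distal nephron markers listed, these 3 were in the table, and others such as uromodulin and aquaporin 2 were not analysed here. Of 20 proximal tubule markers listed, 8 were measured, and 7 of them were detected in all 4 samples. The median Ct over the samples ran from 26.19 to 33.97 for the proximal markers and from 29.45 to 35.84 for the distal ones. The ranges overlap, and a Ct depends on the primers as well as the transcript, so neither segment was set above the other by these values. Calbindin, the defining marker of the connecting tubule among the 3, was not detected in untreated MCT cells.

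Relative to Actb, Egf was highest in untreated cells, followed by 11R-VIVIT, CsA and SB203580. The step from untreated to 11R-VIVIT was 0.11 on the log2 scale, that from 11R-VIVIT to CsA 1.04 and that from CsA to SB203580 0.30. Untreated cells and 11R-VIVIT were the closest neighbours, and whether any of the steps exceeds the spread between cultures is not known. Against untreated cells the log2 change of Egf was -1.15 with CsA, a 2.21-fold lower level. It was -1.45 with SB203580, 2.73-fold lower, and -0.11 with 11R-VIVIT, 1.08-fold lower. These comparisons share the untreated sample. Of the cycles behind the difference, Egf itself crossed 0.87 cycles later with CsA and 1.14 cycles later with SB203580, while Actb crossed 0.27 and 0.31 cycles earlier. Without a reference gene the CsA change was therefore -0.87, under 2-fold, and that with SB203580 was -1.14.

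A gene was called raised or lowered when its level differed 2-fold or more between the samples compared. With CsA, 16.2% of the 80 array genes with a value were lowered by this rule, and Egf was the one of 2 members with a value that was. With SB203580, 8.86% of 79 genes were lowered, and Egf was 1 of 3 members. With 11R-VIVIT, 3.95% of 76 genes were lowered and none of the members was. The split of called genes by direction depended on the reference. With CsA, 16 genes were raised and 13 lowered relative to Actb, 8 and 20 relative to the array median, and 22 and 7 without a reference. With SB203580 these were 12 and 7, 10 and 7, and 22 and 5, while with 11R-VIVIT they were 4 and 3 in each case. The array median is the middle Ct in each sample of the 69 genes detected in all 4 samples. With CsA this reference takes 0.50 off each change, while the median change relative to Actb was 0.20. Among genes measured in both samples, 2 of 72 were lower than Egf with SB203580 and 7 of 70 with CsA. Its change with SB203580 was larger in size than that of 93.1% of these genes, with CsA larger than that of 71.4%, and with 11R-VIVIT larger than that of 21.4%. The median size of a change over the array was 0.65 with SB203580, 0.74 with CsA and 0.27 with 11R-VIVIT, on the log2 scale. The CsA change of Egf was thus nearer to what the array showed at large than its SB203580 change.

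Compared directly, without the untreated sample, Egf was 2.05-fold lower with CsA than with 11R-VIVIT (log2 difference -1.04) and 2.52-fold lower with SB203580 than with 11R-VIVIT (-1.34). Of the array, 15.2% of 79 genes were lowered in the first comparison, or 12 genes against 18 raised, and 7.5% of 80 in the second, or 6 against 11 raised. Relative to the array median the first became 21 lowered and 12 raised and the second 6 and 6, and without a reference they became 10 and 27, and 4 and 20. The first value stood close to the 2-fold threshold, and was -0.96 with an amplification base of 1.9 and -0.75 without a reference gene. Between CsA and SB203580 the difference was 0.30, with CsA the higher. This last order turned to -0.11 when the median of the array replaced Actb.

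**Figure D2:**
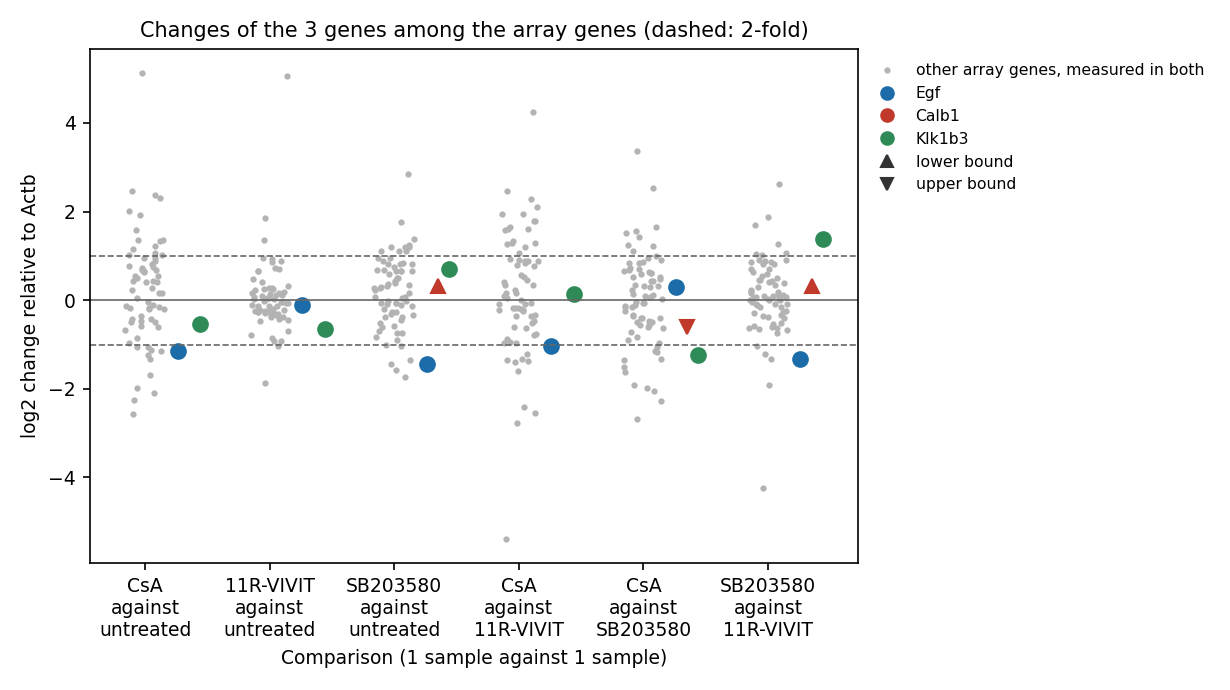
Log2 change relative to Actb (vertical axis) in 6 comparisons of 1 sample against 1 sample (horizontal axis). Coloured circles are the 3 genes, triangles are bounds of Calb1, grey points are the other array genes measured in both samples, and dashed lines mark 2-fold. Egf lies below the lower line in 4 of the 6 comparisons, and Klk1b3 lies past a line where SB203580 is set against CsA or 11R-VIVIT.

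Klk1b3, the kallikrein, was highest with SB203580, followed by untreated cells, CsA and 11R-VIVIT. The steps between neighbours in this order were 0.71, 0.53 and 0.13 on the log2 scale. Against untreated cells its log2 change was 0.71 with SB203580, a 1.64-fold higher level, -0.53 with CsA and -0.66 with 11R-VIVIT. None reached 2-fold relative to Actb, but the CsA value was -1.03 relative to the array median and the SB203580 value 1.02 without a reference gene. With 11R-VIVIT, where the array moved least, the change of Klk1b3 was larger in size than that of 72.9% of 70 genes. With CsA it was larger than that of 34.3%. The median size of a change with 11R-VIVIT was 0.36 for the 27 measured genes whose Ct averaged 30 or more over the samples and 0.24 for the 43 earlier ones, and Klk1b3 belongs to the late group.

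The wider differences of Klk1b3 lay between treatments. It was 2.36-fold lower with CsA than with SB203580 (log2 difference -1.24), where 18.5% of 81 genes were lowered, 15 against 10 raised, or 22 against 7 relative to the array median. It was 2.59-fold higher with SB203580 than with 11R-VIVIT (1.37), where 13.8% of 80 genes were raised and 3 of 73 measured genes lay higher. Both values kept their side of 2-fold under each other reference and amplification base that gave a value. Between CsA and 11R-VIVIT the difference was 0.13, and it was -0.38 relative to the array median.

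Calb1, the calcium carrier, gave a bound at most, since a Ct past the limit was set to 35. Its log2 change with SB203580 was at least 0.33 against untreated cells and at least 0.32 against 11R-VIVIT. CsA against SB203580 was at most -0.60. For CsA and for 11R-VIVIT against untreated cells, and for CsA against 11R-VIVIT, both samples were past the limit and no change is given. With every late Ct used as measured, the values were -1.51 for CsA, 0.48 for 11R-VIVIT and 1.41 for SB203580, each against untreated cells. On that scale Calb1 spanned 2.92 log2 units over the 4 samples, and 3 of the 84 genes had a wider span. Egf spanned 1.45 and Klk1b3 1.37, and the median of the array was 1.28. Cycles this late start from few template molecules, and the precision of a Ct this late was not measured here.

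The 3 genes did not all share a pattern over the 4 samples, but Calb1 and Klk1b3 both had their highest level with SB203580. Egf was lower with SB203580 than in untreated cells, where Klk1b3 was higher and Calb1 at least 1.26-fold higher. With CsA, both Egf and Klk1b3 lay below untreated cells, as did Calb1 with late Ct as measured (-1.51). The root mean square distance of the patterns, each centred on its own mean over the 4 samples, was 1.01 log2 units for Egf and Klk1b3, 1.25 for Egf and Calb1 and 0.80 for Calb1 and Klk1b3, with late Ct values as measured. The median distance of Calb1 to the 83 other array genes was 1.19. To the 68 other genes detected in all samples, the median was 0.90 for Egf and 0.72 for Klk1b3.

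For each gene, the 3 array genes with the smallest such distance over the 4 samples were picked, and 2 of those of Calb1 are named. Those of Egf, out of 68 genes detected in all samples, were Cxcl1, a neutrophil chemokine, at 0.28, Slc22a5, the carnitine transporter, at 0.34 and Cdkn1a, the cell cycle inhibitor p21, at 0.35. The median distance was 0.90. Cxcl1 had log2 changes of -1.14 with CsA, -0.19 with 11R-VIVIT and -0.82 with SB203580, so that it was lower with the same treatments as Egf. Those of Slc22a5 were -0.47, -0.23 and -0.90. Cdkn1a differed from Egf with 11R-VIVIT, where it stood at -0.85, and had -1.06 with CsA and -1.36 with SB203580.

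Klk1b3 was nearest to Hmox2, the constitutive heme oxygenase, at 0.31, to Clu (clusterin), a secreted chaperone of injured tubules, at 0.31 and to Gatm, the first enzyme of creatine synthesis, at 0.35, with a median of 0.72 over 68 genes. All of these had their highest level with SB203580, with log2 changes of 0.75 for Hmox2, 1.37 for Clu and 0.68 for Gatm. With CsA they parted, at -0.60, -0.67 and 0.27. Calb1, with late values as measured and over 83 genes, had among its 3 nearest genes Slc22a6, a transporter of organic anions, at 0.35 and Havcr1, the injury marker KIM-1, at 0.41. Their log2 changes with CsA were -1.32 and -2.10. These genes were picked for their likeness to a member, so highs and lows shared with it largely follow from that choice. All distances share the same 4 samples and the same Actb values, so they describe likeness and test nothing.

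**Figure D3:**
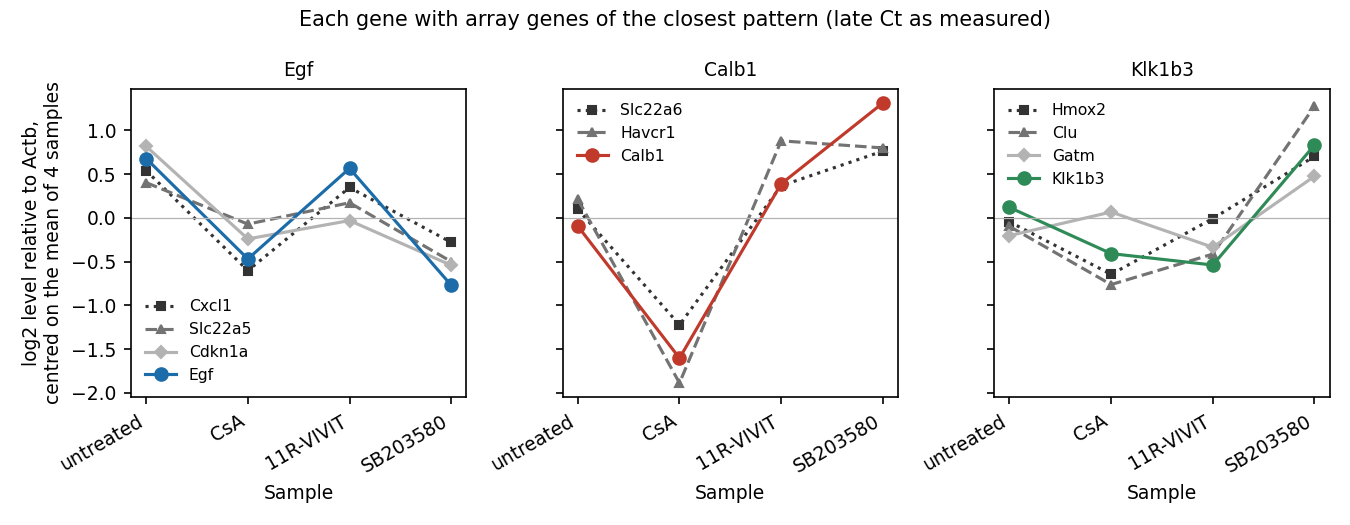
Log2 level relative to Actb, centred on the mean of the 4 samples (vertical axis), in each sample (horizontal axis) for Egf, Calb1 and Klk1b3 (coloured) and array genes from the 3 nearest to each (grey, 2 of them for Calb1). Lines only join the points of a gene. Egf and its neighbours are lowest with CsA or SB203580, Calb1 and its neighbours are lowest with CsA, and Klk1b3 and its neighbours are highest with SB203580.

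Genes of related function were read from lists. Of 5 calcium-binding proteins on the array, Calb1 included, Spp1 (osteopontin) was called raised with CsA (log2 change 1.06), where 20% of all genes were raised, and with SB203580 (1.11), where 15.2% were. None was lowered. The list's median was 0.59 with CsA and 0.33 with SB203580, against 0.15 and 0.27 over all genes with a value. Rgn (regucalcin), a calcium-binding protein of the cytosol like calbindin, stood at 0.50 with CsA, -0.39 with 11R-VIVIT and 0.65 with SB203580. Anxa5, which binds membranes through calcium, stood at 0.67 with CsA and -0.02 with SB203580. Of 6 proteases and protease inhibitors, Klk1b3 included, the lysosomal protease Ctss (cathepsin S) was raised with each of the 3 treatments. It stood at 1.36 with CsA, 1.35 with 11R-VIVIT and 1.25 with SB203580, and no member of the list was lowered. These calls of Ctss share the untreated sample, where its Ct of 34.36 lay close to the limit. Its Ct was 32.73 with CsA, 33.03 with 11R-VIVIT and 32.80 with SB203580. With 11R-VIVIT, 5.26% of all genes were raised. A2m, an inhibitor that traps proteases, stood at 0.78 with CsA and 0.84 with SB203580. Cst3 (cystatin C) stood at 0.05 with CsA, -0.12 with 11R-VIVIT and -0.06 with SB203580.

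Of 5 genes that EGF receptor signalling is known to induce, none passed 2-fold with CsA, where 20% of all genes were raised and 16.2% lowered. CCnd1 (cyclin D1), which drives entry into the cell cycle, was lowered with SB203580 (-1.58), as were 8.86% of all genes, and stood at 0.95 with CsA. Odc1, the first enzyme of polyamine synthesis, stood at -0.11 with CsA and -0.73 with SB203580. Atf3, a stress-response factor, was lowered with 11R-VIVIT (-1.87), where 3.95% of all genes were. Whether the values of this list relate to the level of Egf was not tested. Of the 8 proximal markers, CsA lowered 4, among them Slc22a6, G6pc and Glul, against 16.2% of all genes, and the list's median was -0.87. Slc22a5 (-0.47) and Bhmt (-0.49) stood lower without a call, and Rgn (0.50) and Gatm (0.27) higher. With CsA the Ct of Slc22a6 (34.08) and Glul (34.48) lay close to the limit. That of G6pc (35.15) lay past it, so its change is a bound. With SB203580 none was called and the median was 0.65. Egf and 4 of the 8 proximal markers were thus called lowered with CsA, and Egf alone of these with SB203580. Of the 4 injury markers, Havcr1 was lowered (-2.10) and Spp1 raised with CsA, and Clu (1.37) and Spp1 were raised with SB203580. With CsA 20% of all genes were raised and 16.2% lowered, and with SB203580 15.2% and 8.86%. Some of these calls rest on the reference. With CsA and the array median, Spp1 (0.56) and Ctss (0.86) were no longer raised and Clu (-1.16) was lowered, and the medians of the EGF receptor, injury and protease lists became -0.26, -0.38 and -0.50. With CsA and no reference, CCnd1 (1.22), Cd44 (1.03), Lcn2 (1.17) and A2m (1.06) were raised and 3 of the 8 proximal markers were lowered. A2m (1.14) was also raised with SB203580 in that case. The lists were chosen with results of these data known, and a count within them is a description.

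The Egf values against untreated cells kept their sign in all 6 other settings, as did those of Klk1b3 in the 5 settings that gave a value.

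**Figure D4:**
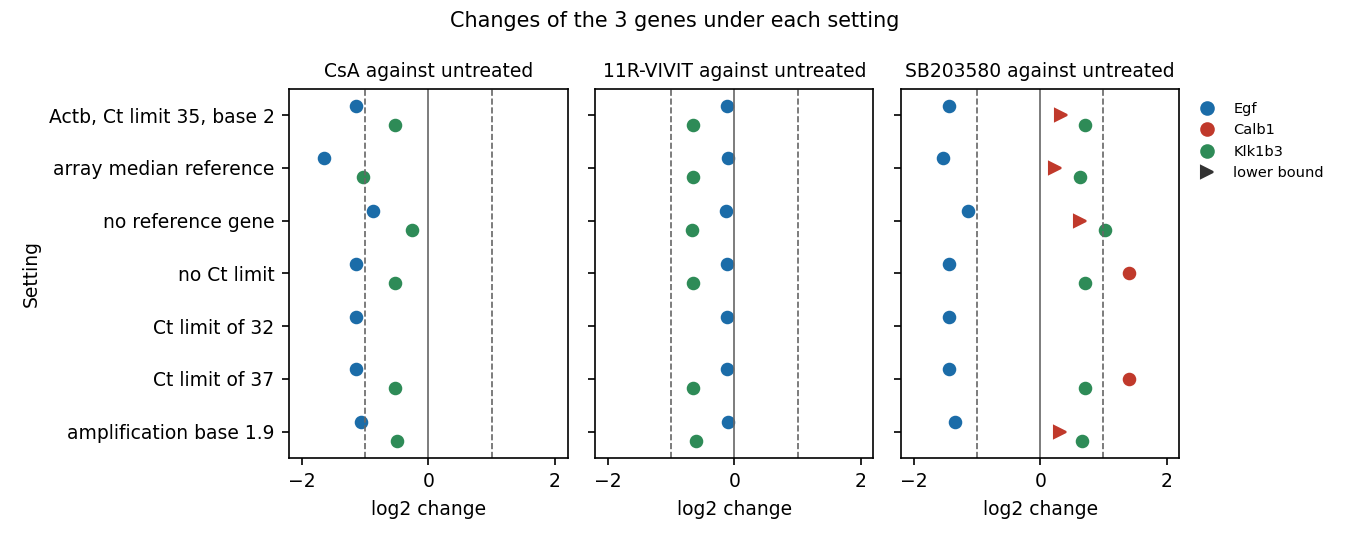
Log2 change against untreated cells (horizontal axis) of Egf, Calb1 and Klk1b3 under the main setting and 6 others (vertical axis), in a panel for each treatment. Triangles are lower bounds and dashed lines mark 2-fold. Egf with SB203580 stays below the lower line in all 7 settings, though the Ct limits could not move its value. Egf with CsA crosses that line without a reference gene (-0.87).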

How the data were processed

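Total RNA of MCT cells was isolated with TRIzol, reverse transcribed and amplified with SYBR green on a nephrotoxicity PCR array. The authors deposited 1 Ct score per gene and sample without normalization, with 4 samples and 84 genes besides Actb. Whether wells were averaged is not stated in the sources used here. A second deposited table holds the authors' own fold changes and was not used. Samples were assigned by the treatment label.

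The log2 change was the difference of Ct between samples, each relative to Actb, with a base of 2 per cycle. A Ct of 35 or later was set to 35, which gives a bound, or no change where both samples were late. A call needed 2-fold or more. No test was run, because each condition has 1 sample, and this number sets the precision. The study's methods name the housekeeping genes of the array as reference, and Actb is the one in the Ct table.

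Named were the 3 members, Actb, members of the lists and the 3 genes of the nearest pattern, of which 1 is not reported here. Members and lists were chosen with earlier results of these data known. Alternatives were an array median reference (69 genes), no reference, no Ct limit, limits of 32 and 37, a base of 1.9, and thresholds of 1.5-fold and 3-fold. Of 84 symbols, 77 matched a symbol of GRCm38.p6, 5 a synonym and 2 neither. The calculation was tested on simulated data. Python 3.11.15, numpy 2.4.6, pandas 2.3.3, Biopython 1.88 and matplotlib 3.10.9 were used.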

Additional observations from a re-analysis of the deposited data

How the results depend on the processing

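Of 81 values of the members recalculated under 6 settings, 69 kept their sign and side of 2-fold. A Ct limit later than both Ct values cannot alter a value, and a base of 1.9 cannot alter a sign. A part of the 69 was thus fixed beforehand. The cause of a change between settings was not tested unless the setting itself gives it. The array median is the middle Ct of the 69 genes in each sample, which is not the same as the median change. Relative to Actb, the median change was 0.20 for CsA against untreated cells, 0.10 against 11R-VIVIT and 0.04 against SB203580. The array median as reference takes more than that off each change. It takes 0.50 off CsA against untreated cells, 0.51 off CsA against 11R-VIVIT and 0.41 off CsA against SB203580. Klk1b3 then had -1.03 with CsA, its difference between CsA and 11R-VIVIT turned to -0.38, that of Egf between CsA and SB203580 to -0.11, and the upper bound of Calb1 for CsA against SB203580 was -1.01. Without a reference gene, Egf was -0.87 with CsA and -0.75 for CsA against 11R-VIVIT, and Klk1b3 was 1.02 with SB203580. With a base of 1.9, Egf for CsA against 11R-VIVIT was -0.96. With no Ct limit, and with a limit of 37, Calb1 with SB203580 was 1.41 against untreated cells, and for CsA against SB203580 it was -2.92 and at most -2.60. With a limit of 32, Calb1 and Klk1b3 had no value.

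The genes called over the array numbered 29 with CsA, 7 with 11R-VIVIT and 19 with SB203580 against untreated cells, 30 for CsA against 11R-VIVIT, 25 for CsA against SB203580 and 17 for SB203580 against 11R-VIVIT. In that order they were 46, 22, 42, 48, 47 and 34 at 1.5-fold and 14, 3, 3, 18, 11 and 5 at 3-fold, as the threshold sets. With a limit of 32, which leaves fewer genes, 3 were called with 11R-VIVIT and 15 for CsA against SB203580, and with a base of 1.9 there were 11 for SB203580 against 11R-VIVIT.

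The alternative that takes the authors' deposited fold changes was not run, since that table holds their own comparison. No paired analysis was possible because there was 1 sample per condition. Leaving out a replicate does not apply for the same reason. Each value rests on 1 deposited Ct per sample, and that of Calb1 lay past 35 cycles in 3 of 4 samples.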
